A study of Mus musculus with 9 samples.

Results

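The MAP kinase pathways of the cell are restrained by inhibitors whose own transcription they induce, and 9 genes of this kind were followed here in sorted stromal cells of mouse adipose tissue and muscle. They are the dual-specificity phosphatases Dusp1, Dusp4, Dusp5 and Dusp6, the Sprouty genes Spry1, Spry2 and Spry4, and the Sprouty-related genes Spred1 and Spred2. They were taken by symbol from a normalized expression table of 26214 genes, in which all 9 were listed. All 9 also passed the filter on low values, a mean of at least 10 over the libraries tested.

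The cells came from male C57Bl/6J mice of 8 to 12 weeks, with no other genotype, and were taken at day 1 after an injection into the quadriceps. ASCs, the stromal progenitors of subcutaneous adipose tissue (ScAT), came from mice given NaCl (3 libraries). Fibro-adipogenic progenitors (FAPs), the corresponding stromal cells of skeletal muscle, came from the quadriceps after NaCl (2 libraries) or after glycerol, which injures the muscle (3 libraries, called injured FAPs). CD31+CD45+ cells of the glycerol-injected quadriceps gave 1 library, which entered no test. ASCs and FAPs were depleted of CD45+ and CD31+ cells and then selected for Sca-1 with magnetic beads, ScAT after digestion with collagenase and DNAse and muscle after collagenase B and dispase, so that tissue and digestion cannot be told apart in any comparison of ASCs with FAPs. The replicates were made from cells pooled from 3 animals. Since it is not stated that each had a pool of its own, the p-values measure the spread between libraries, which may be technical.

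Growth factor receptors signal through Ras, Raf and MEK to ERK, and stress and cytokine receptors through parallel cascades to JNK and p38. The DUSP proteins named here remove the activating phosphates from these kinases. Sprouty proteins act at the membrane, between the receptor and Raf, and Spred proteins bring the Ras inhibitor neurofibromin to the membrane. As ERK activity raises the transcription of several of these genes, Dusp6 and Spry4 among them, their transcripts are widely used as a readout of ERK signalling. In these data they are transcript levels, and no kinase activity was measured.

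The libraries of ASCs, FAPs and injured FAPs held between 24052508 and 27481573 reads on genes, and the CD31+CD45+ library held 13091077. The lowest read number of a member in any of the 8 libraries tested was 52, for Dusp4, against at least 133 for each of the others. Differences were tested with limma on log2(value + 1), with Benjamini-Hochberg adjustment over 13601 genes, and a gene counted as called when its adjusted p was under 0.05 and its log2 fold change beyond 0.58 either way. Of the 9 members, 7 were called in ASCs against FAPs, 3 higher (Dusp5, Spry2 and Spred1) and 4 lower (Dusp6, Spry1, Spry4 and Spred2). Among all genes tested in that comparison, 23.4% were called higher and 23.8% lower. In injured FAPs against FAPs 5 members were called, 2 higher (Dusp5 and Spred1) and 3 lower (Dusp1, Spry1 and Spry4), where 24.9% of all genes were called higher and 27.7% lower. In injured FAPs against ASCs 6 members were called, 4 higher (Dusp6, Spry4, Spred1 and Spred2) and 2 lower (Dusp1 and Dusp4), where 25.0% of all genes were called higher and 25.8% lower. A large part of the transcriptome thus passed in each comparison, and nothing is read from the number of members that did. The comparisons share libraries, both with FAPs the same 2, and their values are given side by side. In bulk libraries such as these, fewer cells expressing a gene and less RNA of it per cell cannot be told apart.

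**Figure D1:**
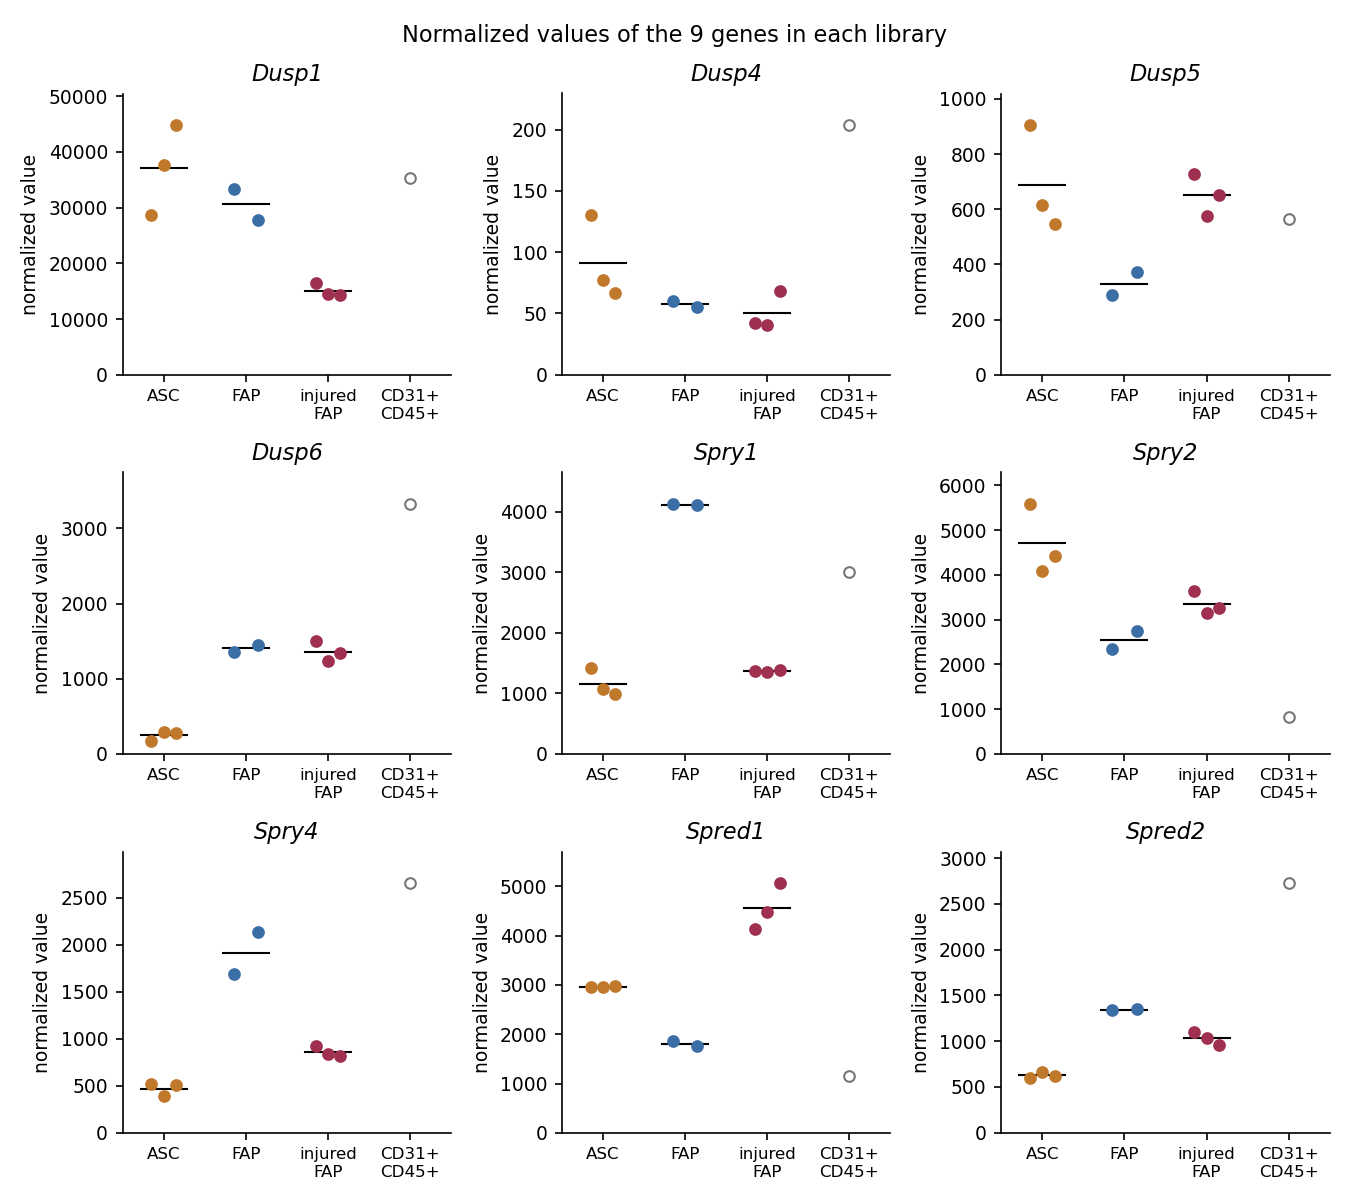
Normalized value of each of the 9 genes (y axis, linear from 0, a scale for each gene) in every library, grouped on the x axis; points are libraries, bars are group means, and the open point is the single CD31+CD45+ library. Dusp6 lies between 175 and 294 in ASCs and between 1235 and 1503 in FAPs and injured FAPs, whereas Spry1 is at 4107 and 4134 in FAPs and at most 1420.1 in ASCs and injured FAPs.

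Dusp1 encodes a nuclear phosphatase, induced within minutes by growth factors and stress, that acts on p38 and JNK as well as on ERK. It lies at chr17:26505591-26508472 on the minus strand of GRCm38 (mm10). Its normalized value was 28742, 37743 and 44889.7 in ASC replicates 1 to 3, 33412 and 27851 in FAP replicates 1 and 2, and 16496, 14516 and 14301 in injured FAP replicates 1 to 3. The 3 injured FAP libraries were lower than every other library, and both FAP libraries lay within or just below the range of ASCs. The log2 fold change was −1.02 in injured FAPs against FAPs (95% interval −1.42 to −0.62, adjusted p = 0.000624 from limma with Benjamini-Hochberg adjustment) and −1.28 against ASCs (95% interval −1.63 to −0.92, adjusted p = 5.41e-05). ASCs and FAPs overlapped, at 0.26 (95% interval −0.14 to 0.66, adjusted p = 0.235 by limma). Quantile normalization turned this to −0.51, and over the alternatives the adjusted p (limma, edgeR or DESeq2) ran from 0.0206 to 0.824. The call against ASCs was lost under quantile normalization, where the log2 fold change was −0.41.

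Dusp5, a nuclear phosphatase specific for ERK, lies at chr19:53529145-53541809 on the plus strand. It had 906, 614 and 547 in ASC replicates 1 to 3, 288 and 373 in FAP replicates 1 and 2, and 727, 576 and 653 in injured FAP replicates 1 to 3. FAPs after NaCl were the low group, below all 6 other libraries tested, while ASCs and injured FAPs overlapped. The log2 fold change was 1.03 in ASCs (95% interval 0.57 to 1.50, adjusted p = 0.00178) and 0.98 in injured FAPs (95% interval 0.51 to 1.45, adjusted p = 0.00211), both against FAPs and by limma with Benjamini-Hochberg adjustment. Between injured FAPs and ASCs it was −0.05 (95% interval −0.47 to 0.37), and its sign depended on the setting. An antisense gene, AC137853.2, overlaps Dusp5 in the GENCODE annotation. The study counted on an annotation from UCSC, and whether that holds this gene was not checked. As the strand setting of the counting was not stated, reads of the pair cannot be told apart.

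Promoters of the members were searched for known response motifs. Stretches are shown for Dusp1 and Dusp5, where a full motif was found. A link of these motifs to the direction of a change was not tested. The RefSeq table (GRCm38.p6) held a window for 7 of the 9 members, not for Dusp4 and Spry4. In the 250 bases before the annotated start, both strands were searched for the cyclic AMP response element (CRE, TGACGTCA), its short form (TGACG, which the full CRE contains), the CArG box of serum response factor, the AP-1 site (TGANTCA), the ETS core (CCGGAA) and the TATA box (TATAAA). A CRE was found in Dusp1 alone, starting 143 bases before the start, and 1.55% of all 32851 windows hold one. Dusp5 held 2 CArG boxes, starting 82 and 72 bases before the start and lying end to end, and 1.47% of all windows hold a CArG box. The stretches below run from chr17:26508583-26508640 on the minus strand (58 bases, 168 to 111 before the start) and from chr19:53529038-53529107 on the plus strand (70 bases, 107 to 38 before the start), 5′ to 3′, and capitals mark the CRE and the CArG boxes.
Dusp1: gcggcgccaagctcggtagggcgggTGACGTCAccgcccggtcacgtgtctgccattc
Dusp5: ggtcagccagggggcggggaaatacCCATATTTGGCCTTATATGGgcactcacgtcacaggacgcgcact
Short CREs were found in Dusp1 (3, of which 2 lie in the full CRE), in Dusp5 (1, in lower case above) and in Spred2 (1), and 17.8% of all windows hold one. The AP-1 site, the ETS core and the TATA box, held by 6.75%, 12.0% and 12.4% of all windows, were found in none of the 7. A match is a run of letters and not a bound site, and no binding was measured in these cells.

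Dusp6 encodes a cytoplasmic phosphatase specific for ERK and lies at chr10:99263231-99267489 on the plus strand. It was at 175, 294 and 279.9 in ASC replicates 1 to 3, 1359.8 and 1447 in FAP replicates 1 and 2, and 1503, 1235 and 1338 in injured FAP replicates 1 to 3. ASCs were low in all 3 libraries, and the FAP libraries fell within the range of injured FAPs. Compared with FAPs, ASCs had a log2 fold change of −2.52 (95% interval −2.97 to −2.07, adjusted p = 3.63e-06 by limma), which had the largest size among the 9 members in this comparison. Injured FAPs were higher than ASCs by 2.47 on the log2 scale (95% interval 2.07 to 2.87, adjusted p = 1.11e-06 by limma). Between injured FAPs and FAPs the log2 fold change was −0.05 (95% interval −0.50 to 0.40), and it passed 0 without injured FAP replicate 2, at 0.02.

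Dusp4, a nuclear phosphatase at chr8:34807610-34819894 on the plus strand, was the least abundant member. Its value was 130.4, 77.0 and 66.5 in ASC replicates 1 to 3, 59.9 and 55.5 in FAP replicates 1 and 2, and 42.4, 40.3 and 68.6 in injured FAP replicates 1 to 3, from 52 to 99 reads. ASCs and injured FAPs overlapped, as injured FAP replicate 3 exceeded ASC replicate 3. Injured FAPs had a log2 fold change of −0.82 relative to ASCs (95% interval −1.48 to −0.17, adjusted p = 0.0307 by limma). This call was lost without ASC replicate 1, at −0.54, without injured FAP replicate 1, at −0.72, and without injured FAP replicate 2, at −0.69. It was also lost with no filter on low values, and over the alternatives its adjusted p (limma, edgeR or DESeq2) ranged from 0.0156 to 0.107. Against FAPs it was 0.59 in ASCs (95% interval −0.14 to 1.33, adjusted p = 0.146) and −0.23 in injured FAPs (95% interval −0.97 to 0.50, adjusted p = 0.554), neither called by limma, although quantile normalization gave 1.13 in ASCs and a call. The value in ASCs was 0.31 without ASC replicate 1 and 0.39 with a common 75th percentile, and that in injured FAPs lay between −0.47 and 0.17 over the alternatives.

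Spry1 and Spry4 shared their side of each comparison with FAPs. Spry1, at chr3:37639947-37644599 on the plus strand, had values of 1420.1, 1064 and 982 in ASC replicates 1 to 3, 4134 and 4107 in FAP replicates 1 and 2, and 1367, 1352 and 1389 in injured FAP replicates 1 to 3. Both FAP libraries stood far above the rest, and the injured FAPs, which differed little among themselves, fell inside the range of ASCs. The log2 fold change was −1.85 in ASCs (95% interval −2.17 to −1.54, adjusted p = 2.76e-06) and −1.59 in injured FAPs (95% interval −1.90 to −1.27, adjusted p = 6.41e-06), against FAPs and by limma with Benjamini-Hochberg adjustment. Between injured FAPs and ASCs it was 0.26 (95% interval −0.02 to 0.55, adjusted p = 0.0890 by limma) and was not called. Over the alternatives it lay between 0.16 and 0.42, with an adjusted p (limma, edgeR or DESeq2) from 0.000592 to 0.299. A gene model of unproven coding status, Gm42922, lies across Spry1 on the opposite strand, so its reads could be included.

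Spry4, on the minus strand at chr18:38586247-38601347, was at 518, 389.6 and 505 in ASC replicates 1 to 3, 1689 and 2137 in FAP replicates 1 and 2, and 925, 834 and 817 in injured FAP replicates 1 to 3. The 3 groups did not overlap, with FAPs highest, injured FAPs between and ASCs lowest. Against FAPs, ASCs had −2.02 on the log2 scale (95% interval −2.36 to −1.68, adjusted p = 2.48e-06 by limma) and injured FAPs −1.15 (95% interval −1.49 to −0.81, adjusted p = 9.18e-05 by limma). It was also higher in injured FAPs than in ASCs, by 0.88 (95% interval 0.57 to 1.18, adjusted p = 0.000237 by limma). Gm27369 and Gm27804, gene models annotated as miscellaneous RNA, lie across Spry4 on the opposite strand.

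Spry2 went the other way from Spry1 and Spry4. This gene, at chr14:105891947-105896819 on the minus strand, had 5589.6, 4094 and 4428 in ASC replicates 1 to 3, 2334 and 2739 in FAP replicates 1 and 2, and 3639, 3153 and 3258 in injured FAP replicates 1 to 3. ASCs were highest, FAPs lowest and injured FAPs between them, with no overlap. It was called in ASCs against FAPs, at 0.88 (95% interval 0.57 to 1.20, adjusted p = 0.000383 by limma), and quantile normalization reduced this to 0.44, under the fold threshold. The other comparisons had an adjusted p under 0.05 by limma without reaching that threshold, at 0.40 in injured FAPs against FAPs (adjusted p = 0.0274) and −0.48 against ASCs (adjusted p = 0.00651). Quantile normalization moved the value against ASCs to −0.14.

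Spred1, the gene of Legius syndrome in humans, lies at chr2:117121071-117182279 on the plus strand. Its values were 2960.1, 2962 and 2987 in ASC replicates 1 to 3, 1854 and 1763 in FAP replicates 1 and 2, and 4134, 4473 and 5076 in injured FAP replicates 1 to 3. Injured FAPs exceeded ASCs, and ASCs exceeded FAPs, in every library. Relative to FAPs it had a log2 fold change of 1.33 in injured FAPs (95% interval 1.10 to 1.56, adjusted p = 2.77e-06 by limma) and 0.72 in ASCs (95% interval 0.49 to 0.94, adjusted p = 0.000194 by limma). In ASCs it dropped below the fold threshold under quantile normalization, at 0.37, and with a common 75th percentile, at 0.51. Injured FAPs against ASCs gave 0.61 (95% interval 0.41 to 0.82, adjusted p = 0.000186 by limma), which was 0.53 and no longer called without injured FAP replicate 3.

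Spred2, at chr11:19924442-20024026 on the plus strand, gave 594, 666 and 623 in ASC replicates 1 to 3, 1339.8 and 1353 in FAP replicates 1 and 2, and 1102, 1037 and 956 in injured FAP replicates 1 to 3. Here FAPs were highest and ASCs lowest, with injured FAPs between them and no overlap. ASCs were lower than FAPs, at −1.10 (95% interval −1.34 to −0.87, adjusted p = 1.19e-05 by limma), and injured FAPs higher than ASCs, at 0.72 (95% interval 0.51 to 0.93, adjusted p = 7.42e-05 by limma). Injured FAPs against FAPs had −0.39, under the fold threshold (95% interval −0.62 to −0.15, adjusted p = 0.00840 by limma).

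**Figure D2:**
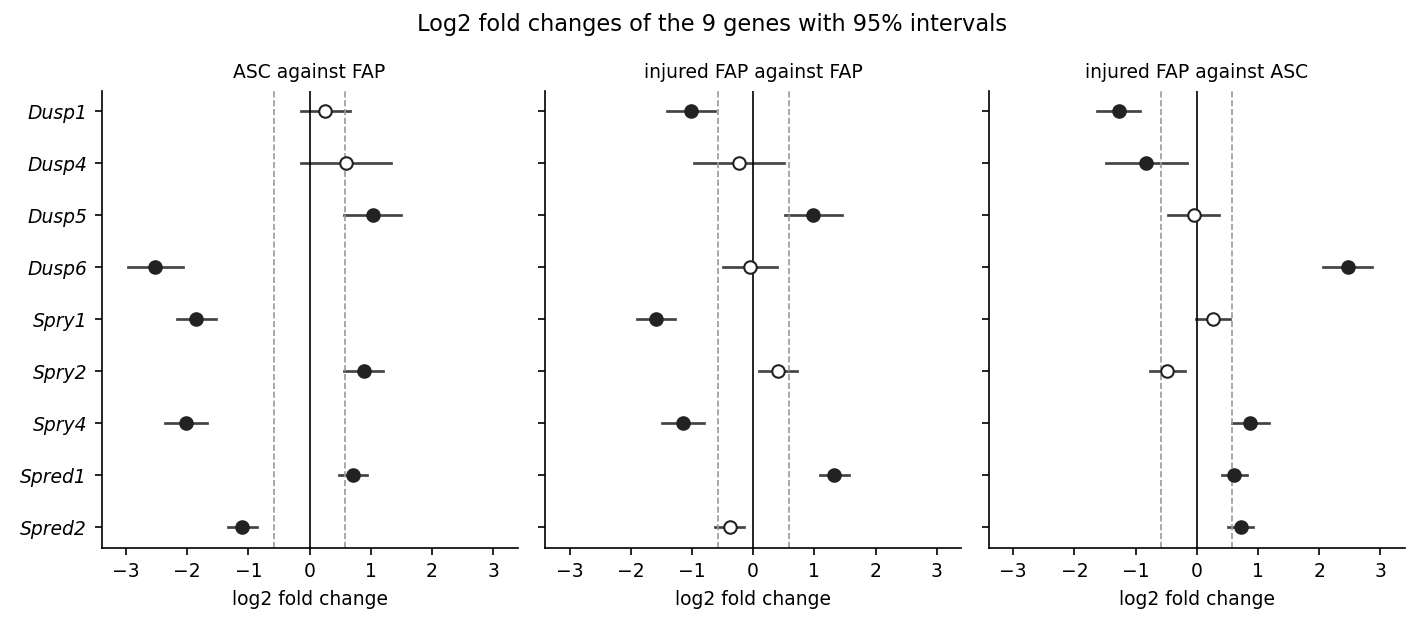
Log2 fold change on the log2(value + 1) scale (x axis) of each gene (y axis) in the 3 comparisons, with 95% intervals from limma; filled points were called, open points were not, and dashed lines mark 0.58 in either direction. In ASCs against FAPs the called points run from −2.52 for Dusp6 to 1.03 for Dusp5, and in injured FAPs against FAPs from −1.59 for Spry1 to 1.33 for Spred1.

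The scaling of the libraries bears on these directions. With a common 75th percentile the median log2 fold change of all genes moved from 0.00 to −0.20 in ASCs against FAPs, from −0.05 to −0.15 in injured FAPs against FAPs and from 0.02 to 0.13 in injured FAPs against ASCs. In ASCs against FAPs 49.6% of the called genes were higher with the deposited scaling and 37.2% with that one. No called member changed sign under any scaling tried. Of those not called, Dusp1 went from 0.26 to −0.51 in ASCs against FAPs and Dusp4 from −0.23 to 0.17 in injured FAPs against FAPs, both with quantile normalization. Dusp5 in injured FAPs against ASCs went from −0.05 to 0.06 with a common 75th percentile.

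Levels of different genes were compared per kb of transcript, as the normalized values grow with length. Dusp1 was the most abundant of the 9 in each group, at 18656 ± 4066 per kb in ASCs (SD, n = 3), 15393 ± 1976 in FAPs (SD, n = 2) and 7590.1 ± 608 in injured FAPs (SD, n = 3). Dusp4 was the least abundant in each, at 33.3 ± 12.5, 21.1 ± 1.14 and 18.4 ± 5.77 per kb in the same order. The genes between them changed places from group to group.

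In ASCs the order after Dusp1 was Spry2 (2254 ± 376 per kb), Spred1 (494 ± 2.46), Spry1 (417 ± 84.1), Dusp5 (279 ± 77.2), Spred2 (220.1 ± 12.7), Spry4 (99.0 ± 14.8) and Dusp6 (89.4 ± 23.3), all as mean and SD of 3 libraries. Their ranges overlapped between Spred1 and Spry1, Spry1 and Dusp5, Dusp5 and Spred2, and Spry4 and Dusp6, so these neighbours are not ordered beyond their spread. In FAPs Spry1 came next to Dusp1, at 1486 ± 7.12 per kb, followed by Spry2 (1215 ± 137), Dusp6 (502 ± 22.0), Spred2 (472 ± 3.23), Spry4 (402 ± 66.6), Spred1 (301 ± 10.7) and Dusp5 (134 ± 24.4), with no overlap between neighbours in the 2 libraries. In injured FAPs the order was Spry2 (1605 ± 123 per kb), Spred1 (758 ± 79.3), Spry1 (494 ± 6.64), Dusp6 (486 ± 48.5), Spred2 (362 ± 25.6), Dusp5 (264 ± 30.6) and Spry4 (181 ± 12.2), where Spry1 and Dusp6 overlapped. Dusp6 and Spry4 were the lowest but for Dusp4 in ASCs, and Dusp6 stood in the middle of the family in both groups of FAPs.

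**Figure D3:**
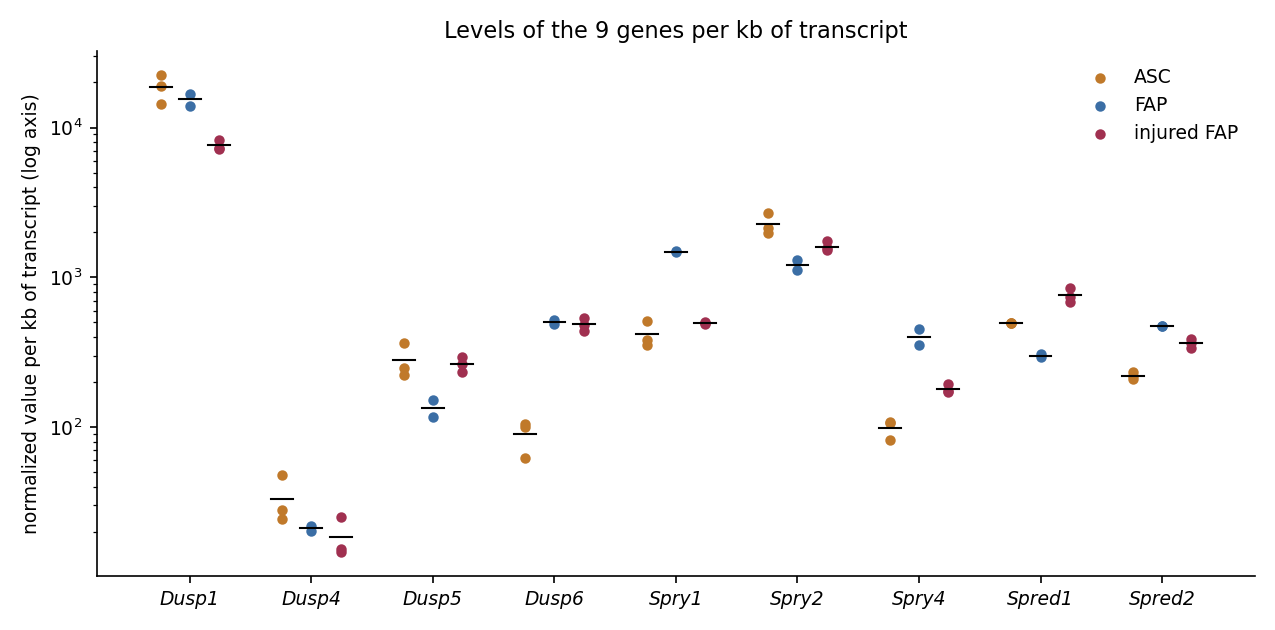
Normalized value per kb of transcript (y axis, log axis) of each gene (x axis) in ASCs, FAPs and injured FAPs; points are libraries and black bars group means. Dusp1 is at 7186 per kb or more and Dusp4 at 47.6 or less in all 8 libraries, and Spry1 and Spry2 exchange places between FAPs and the other groups.

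The make-up of the Sprouty and Spred members differed between FAPs and the other groups. Only members were summed, so Spred3 was left out. It was at 228, 187 and 235 in ASCs, 296 and 405 in FAPs and 310, 352 and 290 in injured FAPs. A share of the summed level per kb within a library does not depend on the size factor of that library. Quantile normalization, which moves genes of a library by different amounts, could change it. Spry2 made up 81.2%, 80.8% and 82.2% of the summed Spry1, Spry2 and Spry4 level in ASC replicates 1 to 3, 37.7% and 40.5% in FAP replicates 1 and 2, and 71.7%, 69.5% and 69.9% in injured FAP replicates 1 to 3. Among these groups Spry1 held the largest share in FAPs only, at 50.3% and 45.7% there, against 15.5%, 15.8% and 13.7% in ASCs and 20.3%, 22.4% and 22.4% in injured FAPs. Spry4 accounted for 3.30%, 3.38% and 4.11% in ASCs, 12.0% and 13.9% in FAPs, and lay between 7.69% and 8.07% in the 3 injured FAP libraries.

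The summed Sprouty level itself was 3299, 2427 and 2582 per kb in ASCs, 2964 and 3242 in FAPs and 2431, 2174 and 2234 in injured FAPs, and ASCs overlapped with both other groups. A similar exchange was seen between the Spred genes. Spred1 was 70.3%, 67.8% and 69.5% of the Spred1 and Spred2 sum in ASCs, 39.6% and 38.2% in FAPs and 64.0%, 67.2% and 71.6% in injured FAPs, so that Spred2 was the larger part in FAPs alone among these groups. Their sum was 700.4, 726 and 715 per kb in ASCs, 778 and 767 in FAPs and 1074, 1107 and 1179 in injured FAPs, with injured FAPs above the rest. These shares were chosen after the values were seen and were not tested.

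**Figure D4:**
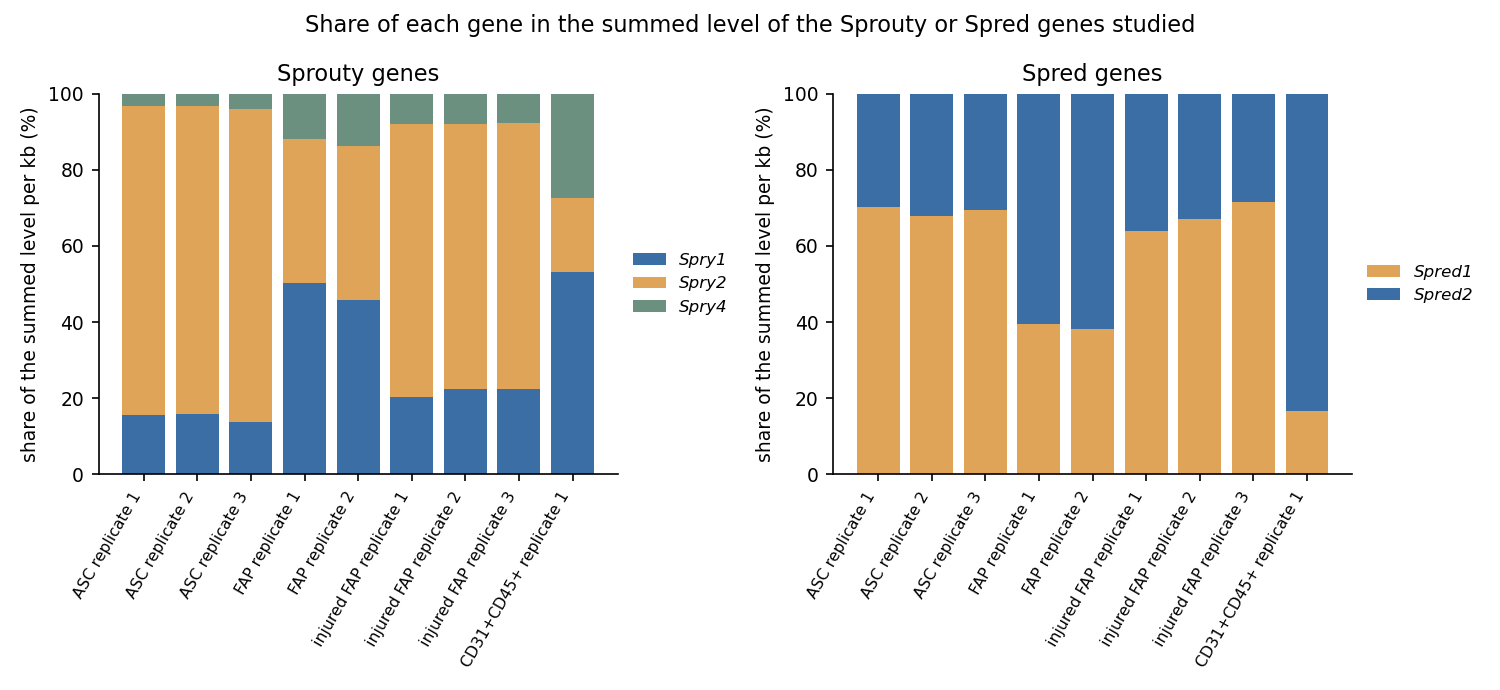
Share of each gene in the summed level per kb (y axis, percent) of Spry1, Spry2 and Spry4 (left) and of Spred1 and Spred2 (right) in each library (x axis). Spry2 takes 80.8% to 82.2% in ASCs, 37.7% to 40.5% in FAPs and 69.5% to 71.7% in injured FAPs, and Spred1 exceeds Spred2 in ASCs and injured FAPs and not in FAPs or CD31+CD45+ cells.

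Among the 10444 genes whose mean was at least 100, those with the profile nearest to each member over the 8 libraries were found by the root mean square distance between centred log2 values. For Spry2 these were Siah2 (distance 0.06) and Nedd4l (0.07), for Spred1 Hprt (0.06) and Vdac3 (0.06), and for Spred2 Ldlrad4 (0.07) and Inpp5b (0.09). Siah2, an E3 ubiquitin ligase, was at 1337, 1000.1 and 1058 in ASCs, 540.1 and 681 in FAPs and 809.7, 687 and 741 in injured FAPs, the same order of groups as Spry2. Spry1 was nearest to Pde7b (0.14) and Qprt (0.15), Spry4 to Tbc1d8 (0.14) and Unc5b (0.15). Dusp1 was nearest to Pld1 (0.10) and H1f2 (0.11), Dusp5 to Cars (0.10) and Emc6 (0.12), Dusp6 to Rcor2 (0.19) and Six4 (0.20), and Dusp4 to Ccdc137 (0.20) and Csrp2 (0.22). Between members the smallest distance was 0.27, of Dusp5 and Spry2, followed by 0.32, of Spry1 and Spry4. This distance is not scaled, so genes that vary little lie closer. The SD of the centred values was 0.49 for Dusp5 and 0.37 for Spry2, against 0.77 for Spry1 and 0.80 for Spry4.

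Other genes were counted by list, leaving out those whose mean fell under 10 once any single group was left out, since these pass the filter only through a group in which they are high. All 9 members pass this stricter filter. Depending on the comparison, 23.4% to 25.0% of all genes tested were called higher and 23.8% to 27.7% lower. Nothing is read from the number called in a list. Of the other MAP kinase phosphatases 5 of 6 were counted, without Dusp2, and 3 were called higher and 0 lower in ASCs against FAPs. Dusp10, which acts on p38 and JNK, had 6582, 4656 and 5709 in ASC replicates 1 to 3, 343 and 504 in FAP replicates 1 and 2, and 1139, 863 and 1027 in injured FAP replicates 1 to 3. ASCs held far more of it than either group of FAPs, and injured FAPs more than FAPs. Its log2 fold change was 3.75 in ASCs (standard error, SE, 0.19, adjusted p = 2.24e-07) and 1.27 in injured FAPs (SE 0.19, adjusted p = 0.000224), against FAPs by limma. Dusp9 was at 39.5, 12.5 and 12.6 in ASCs, 0 and 2.82 in FAPs and 113, 86.8 and 137 in injured FAPs, and Dusp2 at 47.4, 12.5 and 15.1 in ASCs, 0 and 3.76 in FAPs and 11.0, 10.8 and 12.2 in injured FAPs, with so few reads in FAPs (3 and 4 in all) that no fold is given, although Dusp9 is in the counts. In injured FAPs 2 of the 5 were higher than in FAPs and 0 lower, and against ASCs 1 was higher and 3 lower. The list's median log2 fold change was 1.12 in ASCs against FAPs, that of Dusp16, then 0.50 in injured FAPs against FAPs and −0.60 against ASCs. The median of all genes was 0.00 in ASCs against FAPs, −0.05 in injured FAPs against FAPs and 0.02 in injured FAPs against ASCs.

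Of the atypical dual-specificity phosphatases 9 of 10 were tested, as Dusp26 was below the filter. In ASCs against FAPs 1 was higher and 3 lower (median −0.37), in injured FAPs against FAPs 0 and 3 (median −0.40), and in injured FAPs against ASCs 2 and 2 (median −0.13). Dusp3 had 1548, 1300.2 and 1328 in ASCs, 2384 and 2220.3 in FAPs and 919.6, 918 and 994 in injured FAPs. It was highest in FAPs, with log2 fold changes of −0.73 in ASCs (adjusted p = 0.000230 by limma) and −1.29 in injured FAPs (adjusted p = 4.34e-06 by limma). Of the remaining Sprouty and Spred genes, Spred3 was lower in ASCs than in FAPs, at −0.68 (adjusted p = 0.00716 by limma), and not called elsewhere. The median of these 2 genes was −0.15, 0.46 and 0.61 in the order above. The other gene of this list was not called in any comparison.

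Of the other inhibitors of the route from receptor to ERK, all 13 genes were counted. In ASCs against FAPs 3 were higher and 3 lower (median −0.03), in injured FAPs against FAPs 1 and 2 (median 0.25), and in injured FAPs against ASCs 3 and 4 (median 0.39). Errfi1, a feedback inhibitor of the EGF receptor, was at 85054, 64930.1 and 79161 in ASC replicates 1 to 3, 13758 and 10429 in FAP replicates 1 and 2, and 14954, 13251 and 13452 in injured FAP replicates 1 to 3. ASCs stood above both groups of FAPs, by 2.66 over FAPs (SE 0.16, adjusted p = 5.26e-07 by limma). Il17rd, which restrains FGF signalling, was lower in injured FAPs than in FAPs, at −1.39 (SE 0.11, adjusted p = 3.75e-06 by limma), with 1143 and 1137 in FAPs and 470.0, 389 and 448 in injured FAPs. Dok1 was lower in ASCs than in FAPs, at −1.62 (adjusted p = 0.000448 by limma), and Cblb higher, at 1.47 (adjusted p = 3.27e-06 by limma).

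Of 15 genes of the Ras-ERK cascade itself, 3 were higher and 0 lower in ASCs against FAPs (median 0.24), 2 and 3 in injured FAPs against FAPs (median 0.03), and 0 and 3 in injured FAPs against ASCs (median −0.17). Ksr1, a scaffold of the cascade, had 2951, 3097 and 2857 in ASCs, 1998 and 1615 in FAPs and 787, 881 and 720.0 in injured FAPs, where it was lowest, at −1.18 against FAPs (SE 0.12, adjusted p = 1.77e-05 by limma). Nras and Map2k1 were higher in ASCs than in FAPs, at 0.96 and 0.81 (adjusted p = 0.000417 and 0.000626 by limma). Of the 12 genes of the JNK and p38 cascade 11 were counted, without Mapk13, and 4 were higher and 2 lower in ASCs against FAPs (median 0.39), 3 and 2 in injured FAPs against FAPs (median 0.20), and 1 and 3 in injured FAPs against ASCs (median −0.29). Mapk11, a p38 kinase, was at 50.1, 81.5 and 51.5 in ASCs, 123 and 135 in FAPs and 274, 276 and 238 in injured FAPs, which were highest (1.02 against FAPs, adjusted p = 0.00277 by limma). Mapkapk2, a substrate kinase of p38, was higher in ASCs than in FAPs, at 1.37 (adjusted p = 2.78e-05 by limma).

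Genes known to respond to ERK were counted in the same way. Of 13, 6 were higher and 4 lower in ASCs against FAPs (median −0.04), 5 and 4 in injured FAPs against FAPs (median −0.21), and 4 and 7 in injured FAPs against ASCs (median −0.88). Etv4, an ETS factor induced by FGF signalling, had 15.8, 14.7 and 18.8 in ASC replicates 1 to 3, 384 and 546 in FAP replicates 1 and 2, and 486, 351 and 363 in injured FAP replicates 1 to 3. As with Dusp6, ASCs were low and the FAP and injured FAP libraries overlapped, and the log2 fold change of ASCs against FAPs was −4.72 (SE 0.22, adjusted p = 1.36e-07 by limma). Etv1 was at 58.0, 44.2 and 65.3 in ASCs, 611 and 561 in FAPs and 133, 126 and 108 in injured FAPs, with FAPs highest, injured FAPs between and ASCs lowest, the order of Spry4. Against FAPs it had −3.39 in ASCs (adjusted p = 5.46e-07 by limma) and −2.25 in injured FAPs (adjusted p = 6.51e-06 by limma).

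Fosl1, an AP-1 subunit, ran against these and was among the 6 genes of this list called higher in ASCs than FAPs, with 4 lower. It was at 28364, 10329 and 13499 in ASC replicates 1 to 3, 246 and 175 in FAP replicates 1 and 2, and 3442, 3066 and 3077 in injured FAP replicates 1 to 3. ASCs were highest and FAPs lowest, without overlap, as for Spry2. Relative to FAPs its log2 fold change came to 6.24 in ASCs (SE 0.33, adjusted p = 2.94e-07 by limma) and 3.94 in injured FAPs (SE 0.33, adjusted p = 4.79e-06 by limma). Egr1, an immediate early factor, was at 161561 and 163772 in FAPs and 28857, 35053 and 25086 in injured FAPs, and its log2 fold change was −2.47 (SE 0.20, adjusted p = 3.20e-06 by limma).

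Upstream of the members, 13 of 15 receptor tyrosine kinases were counted, without Kit and Fgfr4. In ASCs against FAPs 8 were higher and 2 lower (median 0.76), in injured FAPs against FAPs 0 and 1 (median −0.02), and in injured FAPs against ASCs 2 and 7 (median −1.0). Egfr, the EGF receptor, was at 35498, 31543 and 39601 in ASC replicates 1 to 3, 6625 and 6265 in FAP replicates 1 and 2, and 6395, 6542 and 6137 in injured FAP replicates 1 to 3. ASCs held several times as much as the other groups, which overlapped, and the log2 fold change against FAPs was 2.46 (SE 0.11, adjusted p = 1.30e-07 by limma). Fgfr2 was lower in injured FAPs than in FAPs, at −0.67 (adjusted p = 0.0296 by limma), with 579.6, 480.2 and 849.9 in ASCs, 213 and 280.4 in FAPs and 181, 144 and 137 in injured FAPs. Fgfr4 had 1.32, 1.13 and 7.53 in ASCs, 55.2 and 129 in FAPs and 12.6, 11.6 and 17.5 in injured FAPs, low in all and highest in FAPs.

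Of their ligands 15 of 17 were counted, without Areg and Nrg1. In ASCs against FAPs 9 were higher and 3 lower (median 0.71), in injured FAPs against FAPs 4 and 8 (median −0.70), and in injured FAPs against ASCs 5 and 9 (median −0.60). Fgf1 was at 133, 99.7 and 132 in ASCs, 1497 and 2027 in FAPs and 237, 222 and 236 in injured FAPs. FAPs were highest, as for Spry1, Spry4 and Spred2, and the log2 fold change against them was −3.84 in ASCs (adjusted p = 1.22e-07 by limma) and −2.90 in injured FAPs (adjusted p = 7.58e-07 by limma). Pdgfa was at 55.3, 45.3 and 84.1 in ASCs, 597 and 588 in FAPs and 599, 577 and 593 in injured FAPs, low in ASCs only, as was Dusp6, and injured FAPs exceeded ASCs by 3.29 (adjusted p = 3.13e-07 by limma). Ereg, an EGF receptor ligand, had 47.4, 39.6 and 30.1 in ASCs, 0.951 and 4.70 in FAPs and 195, 182 and 214 in injured FAPs, where it was highest.

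Dusp1 is also among the genes that tissue digestion and cell sorting can induce, and 18 other genes of that kind were summed for comparison, of which Egr1, Fos, Junb and Ier3 also belong to the ERK list. In injured FAPs against FAPs 2 were higher and 13 lower (median −1.33), against ASCs 0 and 13 (median −1.18), and in ASCs against FAPs 7 and 5 (median 0.02). Their summed value was 955577, 1097800.3 and 1235810.5 in ASC replicates 1 to 3, 854766 and 758252 in FAP replicates 1 and 2, and 378402, 349209.5 and 327790.5 in injured FAP replicates 1 to 3. Like Dusp1, the sum was lowest in the 3 injured FAP libraries. Fosb was the most abundant of them in ASCs, Egr1 in FAPs and Zfp36 in injured FAPs, and none of the 18 was at 0 in any library. Hspa1b, a heat shock gene nearly identical to Hspa1a so that their reads may be split, was at 6155, 19716 and 11007 in ASCs, 74740.3 and 64923 in FAPs and 8771, 6852 and 14576 in injured FAPs. The part of digestion or sorting in the level of Dusp1 was not tested.

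Marker genes of cell types differed between the groups too. Of 8 FAP and ASC markers 6 were higher and 0 lower in ASCs against FAPs, while 2 and 4 were so in injured FAPs against FAPs and 1 and 6 against ASCs. Their sum was 2988738, 2750504 and 3159525 in ASCs, 1539651 and 1670352 in FAPs and 690305, 749126 and 669559.9 in injured FAPs, led by Col1a1 or Col3a1, with none at 0, and Pdgfra is both on this list and among the receptors above. Of 9 smooth muscle and pericyte genes counted (Cnn1 was left out) 8 were lower in ASCs than in FAPs and 8 lower in injured FAPs than in FAPs, with 0 higher in both, and injured FAPs against ASCs had 7 higher and 2 lower. The sum of all 10 was 5589.5, 3542 and 4324 in ASCs, 26106 and 22758 in FAPs and 10899, 10528 and 11074 in injured FAPs, the order of Spry4 and Spred2. The most abundant was Abcc9 in ASCs, Rgs5 or Acta2 in FAPs and Cspg4 in injured FAPs, and none was at 0.

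Of 12 endothelial genes 9 were counted, with 2 higher and 6 lower in ASCs against FAPs and 1 higher and 6 lower in injured FAPs against FAPs, or 5 and 2 against ASCs. The sum of all 12 was 7364, 5926 and 7761 in ASCs, 7209 and 4913 in FAPs and 2353, 2484 and 1972 in injured FAPs, led by Tek or, in injured FAPs, Cdh5. Each FAP library had 0 of Plvap, which is counted as higher than in FAPs, and of Emcn, Cldn5 and Vwf, which are not counted, and FAP replicate 2 had 0 of Pecam1, the gene of CD31. Of 15 leukocyte genes 11 were at 0 in both FAP libraries, and several passed the filter only through injured FAP replicate 2, so no number of calls is given for this list. Their sum was 690.3, 565 and 578 in ASCs, 292 and 546 in FAPs and 858, 3684 and 729 in injured FAPs, led by Cd68, Csf1r or Lyz2. Ptprc, the gene of CD45, was among the genes at 0 in FAPs, and injured FAP replicate 2 stood above all others. Without that library the 5 members called in injured FAPs against FAPs were called as before, and Dusp4 was no longer called in injured FAPs against ASCs.

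Skeletal muscle fibre genes, 4 of 10 counted, were lower in 4 cases in ASCs and in 2 in injured FAPs, against FAPs, with sums of all 10 of 161, 120.1 and 163 in ASCs, 841 and 960.5 in FAPs and 297, 301 and 238 in injured FAPs, led by Tnnt3 or Acta1. Satellite cell genes, 2 of 7 counted, were lower in 2 and 2 cases, with sums of all 7 of 646, 569 and 926 in ASCs, 1694 and 1733 in FAPs and 887, 866 and 859 in injured FAPs, led by Des or Itga7, and Pax7 was at 0 in all 3 ASC libraries. Adipocyte genes, 3 of 7 counted, were higher in 2 cases in ASCs and lower in 2 in injured FAPs, with sums of all 7 of 29173, 22299 and 33197 in ASCs, 16490.4 and 13547 in FAPs and 4154, 3997 and 3903 in injured FAPs, nearly all Lpl. Injured FAPs against ASCs had 3 muscle fibre genes and 0 satellite cell genes higher, and 3 adipocyte genes lower. Sums that were highest in FAPs, as were Spry1, Spry4 and Spred2, included those of muscle fibre, satellite cell and pericyte genes. Whether the cells these markers stand for had a part in the levels of the members was not tested.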

How the data were processed

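RNA of sorted ASCs, FAPs, injured FAPs and CD31+CD45+ cells was sequenced, 9 libraries in all. The authors filtered the reads, checked them with FastQC, aligned with HISAT2 to mm10, took counts for each gene from featureCounts (Subread) and used DESeq2 for testing. Their transcript annotation came from the UCSC genome browser. They deposited a normalized signal per gene and library. In every library 100% of the nonzero values were whole reads, within 0.01 reads, divided by a size factor. The table has 2 columns without values. The strand setting and the treatment of reads with several matches were not given in the sources used here.

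From the deposited values log2(value + 1) was fitted with limma 3.58.1 in R 4.3.3, with a mean per group over 8 libraries (5 residual degrees of freedom) and a trended prior. A single spread per gene was shared by the groups, so each interval carries the spread of all of them. ASC libraries differed most among themselves, with a mean chi-square of read numbers per gene of 33.8 to 70.1 between pairs. It was 17.65 for FAPs and 11.1 to 17.1 for injured FAPs. P-values were adjusted by Benjamini-Hochberg over the 13601 genes whose mean reached 10. A fold change on this scale understates that of low genes. Calls needed both an adjusted p below 0.05 and a change of more than 0.58 on the log2 scale. EdgeR 4.0.16 and DESeq2 1.42.0 on the recovered reads, other pseudocounts, filters and scalings, the groups compared alone, a replicate block, unadjusted p and each library left out were alternatives. The fits were first run on simulated data. Coordinates and lengths came from GENCODE M21 (GRCm38), promoters from RefSeq. A share of a family used a single annotated transcript per gene.

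The members and lists were chosen with earlier results of these data known. Named genes were all 9 members, at most the 3 called genes with the largest fold change per list and comparison, and the 2 nearest profiles per member, leaving out symbols of unnamed gene models. Some other genes are named as well, namely the most abundant of a marker list, genes at 0, genes shared between lists and list genes not tested or not counted. The lists reported were other MAP kinase phosphatases, atypical dual-specificity phosphatases, other Sprouty and Spred genes, other inhibitors of receptor to ERK signalling, the Ras-ERK cascade, the JNK and p38 cascade, ERK-responsive genes, receptor tyrosine kinases, their ligands, genes induced by dissociation, and cell type markers. Depth limits Dusp4 most.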

Additional observations from a re-analysis of the deposited data

Results flagged for a closer look

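The CD31+CD45+ cells of the glycerol-injected quadriceps, a single library that entered no test, held 6 of the 9 members above both FAP libraries, as it did 50.6% of all 13601 genes tested, and nothing is read from the number. Dusp1 was at 35372 there, Dusp4 at 204, Dusp5 at 563, Dusp6 at 3329, Spry4 at 2662 and Spred2 at 2731. Dusp4, Dusp6, Spry4 and Spred2 were also above every ASC and injured FAP library, whereas Dusp1 and Dusp5 fell within the range of those libraries. Spry1, at 3012, was below both FAP libraries, and Spry2, at 822, and Spred1, at 1157, were below all 8 libraries of the other groups. Within the Sprouty members Spry1 held 53.2% of the summed level per kb, Spry4 27.4% and Spry2 19.3%. Spred1 held 16.7% of the Spred1 and Spred2 sum. The library was rich in endothelial markers, with a sum of 377380.3 led by Cdh5 and none at 0, and the leukocyte sum was 35874. Its smooth muscle and pericyte sum was 99526, led by Rgs5. With 1 library these values have no replicate check.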

How the results depend on the processing

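Over 19 alternatives the count of genes called stayed within 1.5 times its value in each comparison, at 5341 to 7227 in ASCs against FAPs, 6112 to 7941 in injured FAPs against FAPs and 5877 to 7696 in injured FAPs against ASCs. With 1 library left out these ranges were 5623 to 6688, 6309 to 7370 and 6590 to 7198, a lone FAP library being assumed to vary like the other groups. Members called numbered 6 to 7, 5 and 5 to 6. EdgeR and DESeq2 on the recovered reads called 6450 and 6412, 7303 and 7227, and 7000 and 6865 genes. Of 342 checks of called members, 333 kept the call and all kept their direction. The 9 lost calls were those of Spry2 (1), Spred1 (2) and Dusp1 (1) under other scalings, of Dusp4 (4) and of Spred1 without injured FAP replicate 3. For these the cause was not tested.

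Signs changed only where no call had been made. Quantile normalization gave −0.51 for Dusp1 in ASCs against FAPs and 0.17 for Dusp4 in injured FAPs against FAPs. Dusp5 in injured FAPs against ASCs, at −0.05, went to 0.0625 with a common 75th percentile and 0.00899 with edgeR, and ranged from −0.20 to 0.16 with 1 library left out. Dusp6 in injured FAPs against FAPs ranged from −0.13 to 0.0158 in the same way, the highest without injured FAP replicate 2.

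Same-numbered replicates did not deviate together (correlations of −0.05 to 0.04), while different-numbered ones ranged from −0.12 to 0.12. The deviations are from group means of 2 or 3 libraries. Whether the numbers pair the samples, or whether these share animals or preparation, therefore cannot be told from them. With a replicate block 6287, 7046 and 6861 genes were called, and the members called were unchanged. Dusp4, with 52 to 99 reads, is the member whose depth limits it most.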
